A study of Mus musculus with 8 samples.

Results

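The chromosome 17 flanks of the H2 interval are the stretches of mouse chromosome 17 on either side of the major histocompatibility complex, named H2 in the mouse. Members were the non-control array probes placed by the deposited mm8 annotation on chromosome 17 between 20 and 33.55 Mb, the proximal flank, or between 36.88 and 55 Mb, the distal flank, with probes for Angptl4 left out. The rule used position alone. It gave 798 of 41174 probes (entities), 511 in the proximal and 287 in the distal flank, and 267 probes lay in the interval between them.

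Gene expression was measured in whole pancreas of 8 female NOD mice, 12 weeks old, each on its own two-color array. Every NOD sample was labeled red (Cy5) and hybridized with one pool of RNA from 8 age-matched NOD.B10 mice labeled green (Cy3). No agent was given to either strain. NOD.B10 is a congenic strain that carries the H2b haplotype of B10 mice on the NOD background and here gave one pooled sample, so variation among NOD.B10 mice was not measured, and since the dyes were never exchanged a dye effect at a probe and a strain difference cannot be told apart. A log2 ratio above 0 means a higher signal in the NOD mouse than in the pool, and n is 8 mice unless stated. The labels do not say whether the mice were littermates or housed together, and p-values measure the spread between these 8 arrays.

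NOD mice develop autoimmune diabetes spontaneously, and their H2 haplotype is the best known genetic contribution to it. A congenic strain is made by crossing a donor segment into the recipient strain over many generations while selecting for that segment. DNA next to the selected segment is carried along for a distance that differs from one congenic line to another, and genes there can differ between the strains in sequence or in expression. A DNA difference under a probe can also change how well RNA from one strain binds to it. The question was how far from the interval a difference between NOD and NOD.B10 could be seen in the pancreas.

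Of the 798 probes, 708 carried a gene symbol, for 493 symbols, and 599 probes of 434 genes also passed the signal filter and were tested (406 proximal and 193 distal). The remaining members were 90 probes without a symbol and 109 with a symbol whose red signal was under 25 in more than 4 arrays. For 77 members the ratio was 0 in all 8 mice. In the deposited files it is 0 where both dyes carry the software's stand-in for a signal not above background, or where one does and the other dye's signal is no higher than that stand-in. The signal filter counted stand-ins as signal, so a tested probe was not always detected. Olfr99, for example, was tested although red was a stand-in on 8 of 8 arrays. A probe with a ratio of 0 in any mouse cannot keep one sign. The share of spots per array well above background ran from 21.6% to 35.3% in red and from 57.6% to 60.7% in green. The spot coefficient of variation of red was 16.1% to 24.8% on slide 1 (replicates 1 to 4) and 38.2% to 63.5% on slide 2 (replicates 5 to 8). The acinar genes measured among those fixed to check the tissue (Cpa1, Ela1, Pnlip, Cel and Ctrb1) were clearly detected, red and green, on every one of the 8 arrays.

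The share of probes that kept one sign in all 8 mice was higher in either flank than among probes of the other autosomes (chromosomes 1 to 16, 18 and 19) with similar green signal, by a margin that was not tested and was small beside that of the interval. In the proximal flank 78 of 406 probes (19.2%, Wilson 95% interval 15.7% to 23.3%) were above 0 in every mouse or below 0 in every mouse, against 15.3% of the other autosomes' probes weighted to the same distribution of green signal. In the distal flank it was 35 of 193 probes (18.1%, 13.3% to 24.2%), against 13.8%, which lies inside that interval. With one sign in at least 7 of 8 mice the distal share was 30.1%, against 29.6%. In the interval itself it was 64 of 213 probes (30.05%), against 15.2%, and on the rest of chromosome 17 it was 58 of 451 (12.9%), against 13.1%. Over all 28105 tested probes 13.3% kept one sign, 3.92% above and 9.4% below 0. The intervals count each probe as independent and cover counting error only, and neighboring probes often measure the same gene.

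The one-sign probes of the flanks lay on both sides of 0. In the proximal flank 26 were higher in NOD (6.40%, against 4.72% after weighting) and 52 lower (12.8%, against 10.6%), and in the distal flank 11 were higher (5.70%, against 4.42%) and 24 lower (12.4%, against 9.36%). The median of the probes' mean log2 ratios was -0.12 in the proximal and -0.07 in the distal flank, beside -0.09 over the other autosomes. The mean size of the log2 ratio regardless of sign was 0.36 in the proximal flank and 0.34 in the distal flank, where weighting gave 0.33 and 0.31, and it was 0.51 in the interval, where weighting gave 0.32. Mouse by mouse, this mean size lay above the weighted autosomal value in 7 of 8 mice for the proximal flank, by -0.01 to 0.05, in 7 of 8 for the distal flank, by -0.01 to 0.05, and in 8 of 8 for the interval, by 0.11 to 0.25. The margin of either flank was below that of the interval in every mouse. Among probes with both dyes well above background on all 8 arrays, the mean size was 0.263 in the proximal flank, against a weighted 0.2354. In the distal flank it was 0.2315, against 0.2343. Of these probes 30.7% kept one sign in the proximal flank (against 24.3%), 27.7% in the distal flank (against 23.7%) and 26.7% on the rest of chromosome 17 (against 23.5%).

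The excess did not decline evenly with distance. On the proximal side 24 of 104 probes (23.1%, 16.0% to 32.1%) within 4 Mb of the interval kept one sign, against 15.2% after weighting. By the calls described below, 8 of these 104 probes were called, of 14 in that flank, beside 1.72% of all tested probes. From 4 to 6 Mb 8 of 62 probes kept one sign (12.9%, against 14.04%), from 6 to 9 Mb 29 of 122 (23.8%, against 18.2%), and from 9 to 14 Mb 17 of 118 (14.4%, against 13.3%). On the distal side the first 6 Mb held 36 tested probes, many of them for olfactory receptors, and 6 kept one sign (16.7%, 7.87% to 31.9%, against 11.5%). From 6 to 9 Mb on that side it was 13 of 57 (22.8%, against 16.1%), from 9 to 14 Mb 12 of 85 (14.1%, against 13.9%), and beyond 14 Mb 4 of 15 (26.7%, against 9.60%). Within the flanks no distance was found beyond which the share stayed at the weighted value, and the order of the zones was not tested.

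Single 1 Mb bins differed more than the flanks as a whole. Among the 11 proximal and 3 distal bins with at least 20 tested probes, the bin at 26 to 27 Mb of mm8, which holds Itpr3, had the highest share, 9 of 26 probes or 34.6%, against 18.1% after weighting. Of 410 such bins on the other autosomes, 7 exceeded their weighted share by as much. The bin at 29 to 30 Mb, with Pim1, had 6 of 20 probes with one sign (against a weighted 17%), all 6 lower in NOD, and its mean log2 ratio of -0.38 was matched or undercut by 3 of the 410 autosomal bins. The bin at 32 to 33 Mb, holding Cyp4f14, had 8 of 34 (23.5%, against 12.3%), and its mean size of 0.55 was reached by 2 of the 410. In contrast, the bin at 21 to 22 Mb had 0 of 22 probes with one sign and the bin at 28 to 29 Mb 1 of 34 (2.94%, against 12.6%). The bin at 24 to 25 Mb, the most densely covered, had 18 of 70 (25.7%, against 16.8%), 8 higher and 10 lower. The mean log2 ratio of the 11 proximal bins ran from -0.38 to 0.09, the highest at 31 to 32 Mb (weighted -0.18), and lay above the weighted mean in 6 of them. The 3 distal bins, from 45 to 48 Mb, averaged -0.22, -0.03 and 0.04, where weighting gave -0.14, -0.06 and -0.09. Over the 410 autosomal bins it ran from -0.42 to 0.29. The one-sign share lay above its weighted value in 7 of the 11 proximal and in 3 of the 3 distal bins. These ranks describe bins that were looked at after the fact and carry no test.

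A probe was called where NOD and the pool differed 2-fold or more with a Benjamini-Hochberg adjusted p under 0.01 in limma's one-sample moderated test, adjusted over all 28105 tested probes. Over all tested probes 1.72% were called, 0.31% higher and 1.41% lower in NOD. In the proximal flank 14 of 406 probes were called (3.45%), 0 higher and 14 lower, and in the distal flank 6 of 193 (3.11%), 2 higher and 4 lower. Among the 406 proximal probes 3 were 2-fold higher at an unadjusted p under 0.05, beside 182 of 25799 on the other autosomes. The plain one-sample statistic called 0 higher in that flank, beside 56 of 25799. In the interval limma called 17 of 213 (7.98%), and on the rest of chromosome 17 it called 7 of 451 (1.55%). At an adjusted p under 0.01 with no minimum fold, 49 proximal probes (12.1%, 17 higher and 32 lower) and 21 distal probes (10.9%, 7 higher and 14 lower) passed, beside 6.94% of all tested probes, 2.54% higher and 4.4% lower. The called probes lay from 0.1 to 10.65 Mb from the interval on the proximal side and from 6.04 to 14.3 Mb on the distal side. The counts of calls rested on all 8 arrays. Without mice 1 to 8 in turn the proximal count was 8, 6, 3, 5, 8, 6, 7 and 7, and the distal count fell to 3 without mouse 2, 4 or 5, while the share of all tested probes called fell to between 0.865% and 1.20%. Without mice 1 to 6 in turn the proximal count without a minimum fold was 29, 22, 23, 23, 30 and 32, and without mice 2 to 6 the distal one was 11, 12, 11, 13 and 13, while the weighted share of the other autosomes fell from 8.12% to between 3.52% and 5.90% for the proximal flank and from 7.29% to between 3.16% and 5.40% for the distal one over the 8 leave-outs.

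The direction of the calls depended on how the signals were scaled. Normexp background correction and loess were applied to the raw spot means with their median backgrounds. In limma 5 proximal probes were then called, 5 higher and 0 lower (2 Rps28 probes, Srrm2, Clps and Pdia2), and 0 distal ones, beside 0.238% of all tested probes. At an unadjusted p under 0.05, 0 distal probes were 2-fold changed. With background-subtracted signals centered on each array's median, 75 of 406 proximal probes were called, 50 higher and 25 lower, and 60 of 193 distal ones, 46 higher and 14 lower, beside 25.2% of all tested probes (18.5% and 26.9% of the other autosomes after weighting to either flank). Over all tested probes the share of calls that were higher in NOD was 18.0% as deposited, 71.6% with normexp and 81.6% with centering, and centering raised the median of all tested probes by 0.16 on the log2 scale. Of the 20 called flank probes, 20 kept their sign with normexp and 19 with centering. With normexp Gfer averaged -0.94, Cd320 -0.49, Glo1 -0.46, 9030612M13Rik -0.44 and Satb1 0.42, and the other 15 called probes lay between -0.26 and 0.16. With centering Gfer averaged -1.85, Cyp4f14 -2.17 and Satb1 1.59, whereas Pim1 averaged -0.01 and Zfp40 -0.09. For 16 of the 20, red was well above background on 0 of 8 arrays, and for 15 of these 16, all but Mdfi, it was a stand-in on 2 to 7 arrays.

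A small set of members passed under all 3 scalings, chosen as a criterion after the data had been seen. At an adjusted p under 0.01 with the same sign in each scaling, 11 of 406 proximal probes remained (2.71%, 4 higher and 7 lower) and 5 of 193 distal ones (2.59%, 1 higher and 4 lower). Weighted autosomal shares were 0.987% and 0.938%, the interval had 10 of 213 (4.69%), and the rest of chromosome 17 had 2 of 451 (0.443%). On the proximal side these included Zfp206 (now Zscan10, a zinc finger transcription factor), Srrm2 (a scaffold of nuclear speckles, where splicing factors gather), Gfer, Mrpl28 (of the mitochondrial ribosome), Itpr3, Akap8 (an anchor for protein kinase A), Cyp4f14, one probe of Rps28 and both probes of Cd320. On the distal side they were LOC673334, 1700027N10Rik (now Rsph9, part of the radial spoke of cilia), Klhdc3, Satb1 and Rab5a (a small GTPase of early endosomes). Their sizes moved with the scaling. Itpr3 averaged -0.43 as deposited, -0.66 with normexp and -0.76 with centering, Klhdc3 -0.46, -0.67 and -0.78, Rab5a -0.41, -0.55 and -0.81, LOC673334 -0.60, -0.80 and -1.08, and Akap8 0.82, 0.38 and 1.08. Their distances ran from 0.0953 to 10.2 Mb on the proximal and from 2.57 to 16.1 Mb on the distal side. With one sign in all 8 mice under each scaling as the criterion, 30 of 406 proximal probes remained (7.39%, against 4.95% after weighting). By that criterion 11 of 193 distal probes remained (5.70%, against 4.64%).

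Gfer encodes a sulfhydryl oxidase that serves protein import into mitochondria. Its probe, at chr17:24422894-24422953 of mm8, read -1.56 in the lowest, -1.22 in the median and -1.01 in the highest mouse, with a mean of -1.23 ± 0.20 (SD), and red was well above background on 7 of 8 arrays. All 8 mice were below 0 and the 2 slides gave -1.21 and -1.24 (limma adjusted p = 0.00023, exact sign-flip p = 0.00781, the smallest that 8 mice allow). Noxo1, an organizer subunit of an NADPH oxidase, starts 78 bases away on the opposite strand, and its probe averaged -0.05 ± 0.74, 4 mice above and 4 below 0. The DNA between the start sites is thus shared by a gene that was lower in every NOD mouse and one whose mice overlapped 0.

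The promoter window of Gfer is shown for that reason, together with that of Rps28, whose start lies 10 bases from the start of Ndufa7 on the opposite strand. Both were read from RefSeq (GRCm38.p6, a build other than that of the array annotation, and the reference strain rather than NOD), 5′ to 3′ on the minus strand that Gfer and Rps28 use. The capitals mark the first transcribed bases: base 251 for Gfer and base 173 for the opposite start of Noxo1 in one window, base 251 for Rps28 and base 241 for the opposite start of Ndufa7 in the other.
Gfer and Noxo1, chr17:24696107-24696406: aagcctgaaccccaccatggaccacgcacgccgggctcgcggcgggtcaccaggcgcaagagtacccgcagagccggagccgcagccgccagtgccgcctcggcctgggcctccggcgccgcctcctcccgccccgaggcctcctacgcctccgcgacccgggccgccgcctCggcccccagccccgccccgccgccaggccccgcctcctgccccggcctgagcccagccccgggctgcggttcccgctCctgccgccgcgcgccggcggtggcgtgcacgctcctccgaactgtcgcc
Rps28 and Ndufa7, chr17:33824513-33824812: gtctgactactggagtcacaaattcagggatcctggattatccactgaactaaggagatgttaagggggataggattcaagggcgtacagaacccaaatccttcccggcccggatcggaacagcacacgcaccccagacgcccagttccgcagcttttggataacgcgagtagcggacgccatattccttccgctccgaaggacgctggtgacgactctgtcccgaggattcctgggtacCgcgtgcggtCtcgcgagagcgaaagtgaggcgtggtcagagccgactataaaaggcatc

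The Gfer window is 80.3% G and C with 43 CpG and holds GGGCGG (a GC box) 2 times on either strand, a motif present in 35.7% of the 32851 RefSeq windows of this length. The Rps28 window is 56.3% G and C with 24 CpG and holds TATAAA, the letters of a TATA box, 1 time on either strand, as 13.6% of all windows do. That match lies downstream of the marked start of Rps28, in its transcribed part. CCAAT, present in 37.4% of windows, is found in neither window on either strand, and the same is true of CCGGAAG, the letters of an ETS site, present in 8.86%. These matches describe letters only.

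Rps28, a protein of the small ribosomal subunit, had 3 tested probes that averaged 0.40 ± 0.18, 0.24 ± 0.15 and 0.04 ± 0.09. Probe 1 was above 0 in 8 of 8 mice, from 0.17 to 0.62 (adjusted p = 0.0051), and averaged 1.67 with normexp and 0.86 with centering, and probe 3 in 6 of 8. Ribosomal protein genes have many processed copies in the genome, so the probes may not be specific. Ndufa7, a subunit of complex I of the respiratory chain, averaged -0.22 ± 0.21 and -0.17 ± 0.19 at its 2 probes, with neither past the threshold. Of 16 pairs of tested flank genes that start within 300 bases of each other on opposite strands, the brightest probes had the same sign in 9 (56.2%), and at least one gene passed an adjusted p of 0.01 in 5 (31.2%) and both in 0. On the other autosomes the signs were the same in 266 of 474 such pairs (56.1%), at least one gene passed in 94 (19.8%) and both in 6. In the pair Klhdc3 and Mea1, with starts 56 bases apart, Klhdc3 averaged -0.46, below 0 in all 8 mice (adjusted p = 0.0029), and Mea1 averaged 0.11 at its brightest probe and -0.24 at the other, where 7 of 8 mice were below 0.

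Close to the interval, Cd320, the cell surface receptor for vitamin B12 bound to transcobalamin, was lower at both its probes, 0.1 Mb from the edge. At the brighter probe, chr17:33454731-33454790, the lowest mouse read -1.42, the median -0.81 and the highest -0.41 (mean -0.85 ± 0.32, adjusted p = 0.0028), with red well above background on all 8 arrays. At the other, chr17:33453921-33454271 from first to last base, the mean was -1.13 ± 0.48 (adjusted p = 0.0042), and the range of -1.69 to -0.17 did not reach 0. Leaving out any one mouse other than mouse 1 raised the adjusted p of this second probe above 0.01, to at most 0.015.

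Of the other genes nearest the proximal edge, Rgl2, a guanine nucleotide exchange factor for Ral, lay 0.0023 Mb inside it and averaged -0.38 ± 0.18, below 0 in all 8 mice (adjusted p = 0.0061). Tapbp, which encodes tapasin of the class I peptide loading complex, averaged -0.01 ± 0.31 with 3 mice above and 5 below 0. Zbtb22 averaged -0.39 ± 0.63 with 4 mice on each side, and Daxx averaged -0.26 ± 0.25 with 8 of 8 mice below 0 and an adjusted p of 0.076. Just inside the interval, H2-Ke2 averaged -0.17 ± 0.40. At the distal edge the 5 nearest tested genes were olfactory receptors: Olfr99 and Olfr104 were 0 in all mice, and Olfr102, Olfr103 and Olfr111 averaged -0.24, 0.02 and 0.31 with mice on both sides of 0. H2-M3, just on the other side of that edge, averaged 0.42 ± 0.59. At the outer edges V2r6 and St6gal2 averaged 1.29 and 0.33 with 3 and 6 mice at 0, while 9930105H17Rik and Zfp119, the nearest tested probes beyond them, averaged -0.69 and -1.13 and were below 0 in all 8 mice.

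Cyp4f14, a liver-rich cytochrome P450 that hydroxylates leukotriene B4, had the largest difference of the flanks in the deposited ratios, 0.9 Mb from the interval at chr17:32643687-32643746. The lowest mouse read -3.34, the median -2.53 and the highest -1.66 (mean -2.59 ± 0.60, adjusted p = 0.0005). All mice were below 0 and far from it, and the call was kept without any one mouse, but red was well above background on 0 arrays and a stand-in on 4, so that its rank is uncertain: with normexp it averaged -0.26, nearer 0 than Gfer at -0.94, and with centering -2.17, nearer 0 than 9030612M13Rik at -2.91. The neighbor 9030612M13Rik (now Zfp871), a zinc finger gene, averaged -2.12 ± 0.92 with red a stand-in on 6 arrays.

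Other called genes of the proximal flank included Kctd5, an adaptor of cullin ubiquitin ligases (mean -1.45 ± 0.24), 1600002H07Rik (now Tedc2, -1.10 ± 0.47) and Rab26, a small GTPase of secretory granules (-1.91 ± 0.89). Zfp40 (-1.02), Pim1 (-1.20), 0710001D07Rik (-1.01), Tff3 (-1.22) and Zfp81 (-1.11) were lower in all 8 mice as well. In each of these 8 genes red at the called probe was well above background on 0 arrays and a stand-in on 2 to 7. The exact sizes of these differences are thus uncertain. Kctd5 was past an adjusted p of 0.01 without any one mouse, whereas Pim1 and 0710001D07Rik lost it whichever mouse was left out.

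In the distal flank, Satb1, a chromatin organizer prominent in T cells, was higher in NOD in all 8 mice, at chr17:51204741-51204800. The lowest mouse read 0.64, the median 1.20 and the highest 1.51 (mean 1.14 ± 0.30, adjusted p = 0.00089), with red well above background on 7 arrays and slide means of 1.20 and 1.07. In whole tissue more cells of a type and more RNA per cell cannot be told apart. The 6 leukocyte genes fixed as markers were not tested as a group. Cd3e averaged 0.61 and was higher in 8 of 8 mice, Ptprc averaged 1.46 and was higher in 7, Itgax 1.56 in 7, Ms4a1 1.01 in 6, Itgam 0.55 in 2 and Cd28 0.17 in 6. Red was well above background on 1 array for Itgax and on 0 for Itgam and Cd28. One value is given per gene, although Ptprc has 4 probes on the array and the others 2 each. The part of these genes in the Satb1 difference was not tested.

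Mdfi, an inhibitor of MyoD family factors, was the other called higher gene, from 0.47 through a median of 1.503 to 2.23 (mean 1.43 ± 0.60, adjusted p = 0.0039), with red well above background on 0 arrays. The distal genes called lower were Gpr116 (now Adgrf5, an adhesion receptor that regulates lung surfactant, -1.86 ± 0.43), Gtpbp2 (a GTPase, -1.27 ± 0.63), Tjap1 (a tight junction associated protein, -1.23 ± 0.46) and Parc (now Cul9, a cullin, -1.12 ± 0.50). All had red well above background on 0 arrays. Gpr116 and Tjap1 kept an adjusted p under 0.01 without any one mouse, and Gtpbp2 lost it without any mouse other than 7. Across both flanks 6 of the 20 called probes passed the p and fold thresholds in all 8 leave-outs: Kctd5, Gfer, Cyp4f14, Gpr116, Tjap1 and Satb1. In 4 of these 6 (Kctd5, Cyp4f14, Gpr116 and Tjap1) red was well above background on 0 arrays and a stand-in on 3, 4, 4 and 6, so the spread between their mice is partly that of stand-ins. With normexp Kctd5 averaged -0.075 (adjusted p = 0.13), Gpr116 -0.069 (adjusted p = 0.31) and Tjap1 -0.10 (adjusted p = 0.14).

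Measured probes were taken as those with red well above background on at least 4 arrays. Red is the NOD dye, so this choice removes probes that were low in NOD and shapes the directions that remain. Of 208 such proximal probes 55 kept one sign (26.4%, against 20.5% after weighting), and of 91 distal ones 23 (25.3%, against 20.6%). Of the proximal ones 25 were higher and 30 lower, beside weighted shares of 8.88% higher and 11.6% lower, and of the distal ones 10 were higher and 13 lower, beside 8.85% and 11.8%. The interval had 41 of 114 (36.0%, against 20.01%). Large proximal differences of this kind, beside Gfer, Glo1 and Cd320, were those of Hn1l (now Jpt2, -1.02 ± 0.63), 1110021J02Rik (now Ccdc167, -0.97 ± 0.49) and Srrm2 (0.88 ± 0.14). Srrm2 read 0.66 in the lowest mouse, 0.92 in the median and 1.08 in the highest, with slide means of 0.79 and 0.97. Cramp1l had the smallest adjusted p of the flank genes named here, 7.0e-05, at one probe with a mean of 0.80 ± 0.08, but that probe averaged 0.09 with normexp (adjusted p = 0.69) and 0.13 with centering (adjusted p = 0.65), and its 2 other tested probes averaged 0.33 and -0.50 without passing. Akap8 averaged 0.82 ± 0.23 (adjusted p = 0.001), and Dusp1, a phosphatase of MAP kinases, 0.67 ± 0.26 (adjusted p = 0.0034). Cramp1l, Dusp1, Akap8, Klhdc3, Mea1, Zfp206, Rab5a, Noxo1, Ndufa7 and the weaker Rps28 probes were singled out after their values had been seen.

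The largest measured distal differences were Satb1, Enpp4, Enpp5, Olfr128, Opn5, Ttbk1, LOC673334 and 1700027N10Rik. Enpp4 and Enpp5, neighboring members of the ectonucleotide pyrophosphatase/phosphodiesterase family whose probes lie within 6.67 and 6.68 Mb of the interval, went opposite ways. Enpp5 was lower in all 8 mice, from -1.53 through a median of -0.87 to -0.46 (mean -0.97 ± 0.39, adjusted p = 0.0034). Enpp4 was higher in all 8, from 0.15 through 1.49 to 1.96 (mean 1.13 ± 0.76, adjusted p = 0.021), and did not pass. Its values on slide 1 lay between 1.62 and 1.96, while on slide 2 mouse 5 read 1.36 and the other 3 mice between 0.15 and 0.29. Opn5, a light-sensitive opsin, averaged 0.67 ± 0.18 (adjusted p = 0.00094), and Olfr128, an olfactory receptor, 0.84 ± 0.18 (adjusted p = 0.00045). Ttbk1, a kinase of tau and tubulin, averaged -0.66 ± 0.27, 1700027N10Rik -0.59 ± 0.30, LOC673334 -0.60 ± 0.23, Klhdc3 -0.46 and Rab5a -0.41 at the probe that passed.

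Several genes had probes that pointed in opposite directions in every mouse. In the proximal flank 3 of 84 genes with at least 2 tested probes (3.57%) had one probe above 0 in all mice and another below 0 in all mice, Glo1 among them. In the distal flank it was 1 of 42 (2.38%), Pcaf (now Kat2b), and on the other autosomes 55 of 6324 (0.870%). Glo1 encodes glyoxalase 1, which removes methylglyoxal. Its probe at chr17:30320018-30320077 averaged 0.57 ± 0.21 with mice from 0.31 to 0.87 (adjusted p = 0.0027). Its probe at chr17:30321137-30321196 averaged -1.23 ± 0.48 with mice from -2.01 to -0.76 (adjusted p = 0.0031). The mice did not overlap between the 2 probes of this one gene, so its direction is not settled by these arrays.

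Pcaf, a histone acetyltransferase, averaged -0.91 ± 0.48 at a probe with red well above background on 0 arrays and 0.19 ± 0.13 at one with 8. Probe sequences and the DNA differences between the strains were not used here, so whether a DNA difference lies under any of these probes was not tested. Among genes with several tested probes, the probes with one sign agreed, with none opposed, in 2 proximal (2.38%), 1 distal (2.38%) and 164 other autosomal genes (2.59%) that had at least 2 such probes.

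The gene families of the flanks were otherwise mostly below these thresholds. Counts below are of tested probes, to be read against the 6.94% of all tested probes with an adjusted p under 0.01, and the median of all tested probes is -0.09. The olfactory and vomeronasal receptors, odor and pheromone sensors, had 29 of 45 probes tested, of which 1 passed, Olfr128, with a median of 0.00 and a range of -0.69 to 1.29. Olfr123 averaged -0.69 (adjusted p = 0.011), Olfr137 0.79 with 5 mice at 0, and V2r6 1.29. For Olfr137 and V2r6, red and green were each well above background on 0 arrays. The zinc finger genes had 31 of 37 probes tested and 5 past the threshold, 2 higher (Zfp206 among them) and 3 lower (with Zfp40 and Zfp81 among them), with a median of -0.10. Zfp318 averaged -0.86 with an adjusted p of 0.039. Related zinc finger genes are similar in sequence, and one probe may bind RNA of several.

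The serine protease cluster, whose genes include mast cell tryptases, had 11 of 13 probes tested and 0 past the threshold in limma, 2 at an unadjusted p under 0.05 and 0 with the plain statistic, with a median of -0.12. Its furthest values were Tpsg1 at 0.53, carried by 1 mouse, Prss22 at 0.47 (adjusted p = 0.013), Prss29 at -0.35 and Mcpt6 (now Tpsb2) at -0.33. The TREM cluster, receptors of myeloid cells, had 7 probes tested and 0 past the threshold in limma, 1 at an unadjusted p under 0.05 and 0 with the plain statistic, with a median of 0.27. Trem1 averaged 0.60, also through 1 mouse, Trem3 0.59, Treml4 0.48 and one Trem2 probe -1.16 (adjusted p = 0.016). Of the leukocyte genes given above, the myeloid ones were higher in 7 of 8 mice for Itgax and in 2 of 8 for Itgam, and their part in the TREM values was not tested. Genes of immune signaling had 22 of 25 probes tested and 3 past the threshold, 0 higher and 3 lower (Pim1 and both Cd320 probes), with a median of -0.19. Def6, an exchange factor of lymphocytes, averaged -0.77 at one probe (adjusted p = 0.01).

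Genes of stress and steroid response had 11 probes tested, with 1 higher and 1 lower past the threshold, Vegfa and Pim1, and 2 Fkbp5 probes at -0.43 and -1.04 that did not pass. Among epithelial and secreted proteins, 12 of 15 probes were tested and 1 passed, Tff3, a trefoil factor of mucous epithelia, with Slc22a7, an organic anion transporter, at 1.96 (adjusted p = 0.034), Msln at -0.52 and Clic5 at -0.49. Of 7 probes for genes known from the pancreas 1 passed, Itpr3, the inositol trisphosphate receptor through which acinar cells release calcium. It averaged -0.43 ± 0.11, from -0.54 to -0.24, below 0 in all 8 mice and alike on both slides, at -0.41 and -0.44. Ppard (-1.25, adjusted p = 0.041), Glp1r (0.44) and Tulp1 (-0.40, adjusted p = 0.042) did not pass. Clps, which encodes the lipase cofactor colipase, averaged 0.23 ± 0.24, and Pdia2, a protein disulfide isomerase of acinar cells, 0.11 ± 0.26; both were called higher with normexp only among the 3 scalings, and both were named after their values had been seen. Translation and respiration had 19 probes tested, with 1 higher, Rps28, and 1 lower, Mrpl28 at -0.39 ± 0.14 (-0.79 with normexp and -1.12 with centering), a median of 0.02, and Atp6v0c at -0.59 and one Rps2 probe at 0.38 without passing.

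Of the 90 members without a symbol 59 met the signal filter, and 10 of them kept one sign (4 higher and 6 lower, 16.9%), beside 8.78% of 3440 such probes on the other autosomes. Of the 493 symbols 456 matched a current RefSeq symbol or a synonym, and 455 of these are on chromosome 17 in GRCm38. The exception, Isg15, is on chromosome 4 there, and its flank probe averaged -0.83 with an adjusted p of 0.16.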

How the data were processed

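Pancreas RNA of 8 NOD mice (red) was compared with one NOD.B10 pool (green) on Agilent whole mouse genome arrays. Spots had been quantified by the authors in Feature Extraction 10.7.3.1 from Agilent, with probe positions on mm8. The deposited log10 ratio is red over green after dye normalization, and the deposited intensity of each dye is a processed signal after background subtraction, detrending and dye normalization. Signals not above background had been replaced by stand-ins, and the ratio is 0 where both dyes hold one, or where one does and the other signal does not exceed it.

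From these files, log10 ratios were converted to log2 and replicate spots averaged. Testing took every symbol-bearing probe whose processed red signal, stand-ins included, reached 25 on 4 or more arrays (limma 3.58.1, R 4.3.3, one-sample moderated test, Benjamini-Hochberg adjustment over 28105 probes). Calls need 2-fold and an adjusted p under 0.01. An exact two-sided test over the 256 sign flips was run for single genes. Shares were set beside probes of the other autosomes weighted over 10 equal classes of mean log2 green signal. The number of arrays limits the precision. The fit was tested on simulated data.

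The genes named are all called probes, up to 8 measured one-sign probes per flank with an adjusted p under 0.05, the 5 tested genes nearest each inner edge, the probes astride each edge, and up to 4 probes of each list. Of genes that these rules name, 3 are not reported here. The members and lists were chosen with earlier results of these data known. Alternatives were normexp (offset 50) with loess, median-centered signals, no signal filter, a filter on 4 or more arrays with red well above background, probes without a symbol kept, irregular spots left out, array quality weights, the plain statistic, an adjusted p of 0.05, a fold of 1.5, one sign in 7 of 8 mice, one probe per gene, only the 5 Mb next to the interval, each mouse left out, and each slide alone. Leaving out the 3 arrays whose grid was not rated good, and counts with no minimum fold, were chosen after seeing the data. Scripts ran in Python 3.11.15 with scipy 1.17.1, pandas 2.3.3 and numpy 2.4.6.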

Additional observations from a re-analysis of the deposited data

Results flagged for a closer look

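Of the values named in the report, 7 had 1 mouse further from the others than Dixon's 95% limit allows, and chance alone gives such a gap in about 1 of 20 groups. Tpsg1 read 4.202 in mouse 7 and 0 in the other 7. Trem1, at the probe averaging 0.60, read 4.76 in the same mouse 7 and 0 in the others. Pdia2 read 0.69 in mouse 6, where the others lay between -0.11 and 0.20. Olfr128 read 0.46 in mouse 6, where the others lay between 0.82 and 1.13. Gpr116 read -2.81 in mouse 6, where the others lay between -2.06 and -1.42. The probe 1110021J02Rik read -1.998 in mouse 3, where the others lay between -1.16 and -0.56. Ndufa7 read -0.58 in mouse 8 at one probe, where the others lay between -0.24 and 0.05. Mice 6 and 7 were on arrays whose grid was not rated good.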

How the results depend on the processing

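Of 166 comparisons of a flank summary with an alternative, 93 stayed within the limits set for the summary and 73 moved. Values below give the proximal flank and then the distal flank, and except where given, the cause was not tested. With median-centered signals the one-sign share was 31.0% and 38.3% (26.6% and 34.2% after weighting the other autosomes), calls 75 and 60 (25.2% of all tested probes), probes with an adjusted p under 0.01 109 and 69 (24.3% and 32.2% after weighting), and medians -0.0043 and 0.059. With normexp these were 5 and 0 calls (0.238%), 28 and 8 probes (2.84% and 2.74% after weighting), and medians of -0.017 and -0.019. Requiring red well above background on 4 or more arrays, which leaves fewer probes, gave shares of 26.4% and 25.3% (20.5% and 20.6%) and calls 4 and 2 (1.099% of all tested probes). One sign in at least 7 of 8 mice gave 36.5% and 30.1% (33.2% and 29.6%). With 4 arrays each, slide 1 alone gave shares of 47.3% and 44.0% (43.8% and 39.6%) and slide 2 alone 33.0% and 30.1% (32.7% and 29.1%). Both slides alone gave 0 and 0 calls in limma, beside 0% of all tested probes on slide 1 and 0.011% on slide 2. They also gave 0 and 0 probes with an adjusted p under 0.01 (0% after weighting on slide 1, 0.015% and 0.012% on slide 2). At an unadjusted p under 0.05 there were 165 and 71 probes on slide 1 and 108 and 51 on slide 2. No share of other probes was taken at that unadjusted p, so these counts cannot be read as an excess. The proximal median on slide 2 was -0.057. Without the 3 arrays whose grid was not rated good the shares were 35.2% and 30.1% (28.5% and 25.6%), calls 1 and 1 (0.139%), and probes with an adjusted p under 0.01 4 and 2 (0.303% and 0.263% after weighting). An adjusted p of 0.05 gave 22 and 10 calls (3.27% of all tested probes), a fold of 1.5 gave 32 and 15 (3.95%), and one probe per gene 8 and 3 (1.86%). Within 5 Mb of the interval, with 136 and 28 tested probes, there were 9 and 0 calls (1.95% and 1.44% after weighting), 21 and 3 probes with an adjusted p under 0.01 (7.55% and 5.98%), and a distal median of -0.14. Without the signal filter the distal median was -0.0042. Leaving out each mouse in turn gave 3 to 8 and 3 to 6 calls, and 22 to 34 and 11 to 18 probes with an adjusted p under 0.01 (3.52% to 5.90% and 3.16% to 5.40% after weighting). The one-sign share stayed above its weighted autosomal share in both flanks under every alternative that gave one.

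Of 1801 comparisons of a single probe with an alternative, 1428 did not reverse and kept their side of the adjusted p threshold, 286 did not reverse and no longer passed it, 46 newly passed it (15 of them because it was 0.05 rather than 0.01), and 41 reversed. The 1428 include comparisons of Olfr99 and Olfr104, which were 0 in all 8 mice and had no direction to keep. With normexp, values turned to 0.082 for Noxo1, -0.054 for Rps2, -0.0033 and 0.024 for the weaker Cramp1l probes, 0.036 for Prss29, -0.012 for Tpsg1, 0.042 for Def6, 0.16 for Ndufa7, 0.21 for Tapbp, -0.074 for Olfr103, -0.011 for Olfr111, -0.31 for Mea1 and 0.023 for Trem2. With median-centered signals they turned to 0.012 for Noxo1, 0.41 for Def6, -0.31 for the weaker Akap8 probe, 0.06 for Ndufa7, 0.33 for Tapbp, 0.076 for Olfr102, -0.16 for Olfr103 and -0.32 for Mea1. On slide 1 alone they turned to -0.10 for Cramp1l, -0.034 for Pdia2, -0.27 for Olfr103, -0.071 for Mea1 and 0.021 for Rab5a, and on slide 2 alone to 0.45 for Noxo1 and 0.11 for Tapbp. Olfr103 turned to -0.073 with array weights and -0.093 without the arrays whose grid was not rated good. Leaving out each mouse in turn gave -0.21 to 0.088 for Noxo1, -0.090 to 0.028 for Tapbp and -0.070 to 0.104 for Olfr103.

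No paired analysis was possible because the 8 arrays form one group and their numbers only name mice. Red signal near background limits the calls: among the 20 called probes red was well above background on at least 4 arrays for 4.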

Other observations

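Inside the interval the share of one-sign probes was 32.6% of 43 tested probes at 33 to 34 Mb (against 16.4% after weighting), 32.1% of 84 at 34 to 35 Mb (16.4%), 29.5% of 61 at 35 to 36 Mb (15.2%) and 5 of 25 probes at 36 to 37 Mb (8.94%). The part of the 33 to 34 Mb bin in the proximal flank had 7 of 28 tested probes with one sign (against 18.9%), and the bin at 37 to 38 Mb in the distal flank 6.25% of 16 (against 9.55%). Beyond the outer edge of the distal flank, the bin at 55 to 56 Mb had 7 of 29 probes with one sign (24.1%, against 17.3% after weighting). Of these 29 probes 2 were called, among them Zfp119, beside 1.72% of all tested probes. These values were looked at after the bins had been seen and were not tested.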
